A study of Mus musculus with 4 samples.

Results

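The interferon-inducible GTPases are described here by 10 genes, picked out by symbol from the 16015 genes listed for the colonic epithelium of mice with colitis. They comprise the regulatory immunity-related GTPases (IRG) Irgm1, Irgm2 and Igtp, the effector IRG genes Iigp1, Tgtp2 and Ifi47, and the guanylate-binding protein (GBP) genes Gbp2, Gbp3, Gbp6 and Gbp7. The 10 genes were selected on their difference between the groups compared here, so that difference is given as a description without a test.

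Bulk RNA sequencing was performed on colonic epithelial cells of C57BL/6 mice aged 2 to 4 months, with 2 mice per group. The mice labelled Bmal1 cKO carried Villin-CreERT2 and Bmal1 fl/fl, in which tamoxifen activates a Cre recombinase driven by the promoter of Villin, a gene of the intestinal epithelium, to delete the clock gene Bmal1. The mice labelled WT were controls that, per the study's methods, carried the floxed Bmal1 fl/fl alleles without Cre. All of the mice drank 3% dextran sodium sulfate (DSS), which injures the colonic epithelium and causes colitis, for 5 days, and were examined on day 7. The comparison addressed how loss of the epithelial clock changes gene expression during colitis.

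IRG and GBP proteins are GTPases that cells make in large amounts after interferon-γ, the cytokine of T cells and natural killer cells, binds its receptor. They gather on the vacuoles that hold intracellular bacteria and parasites and help to break them open or to deliver them to autophagy, and GBP proteins also coat bacteria in the cytosol and promote inflammasome activation. Regulatory IRG proteins sit on the membranes of the cell's own organelles and restrain the effector IRG proteins, and Irgm1 is known for limiting inflammation of the mouse intestine.

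The targeted gene was examined first. Arntl, the symbol of Bmal1 in the table, had normalized counts (reads divided by a size factor of the library) of 358 and 342 in the WT libraries and 342 and 289 in the libraries labelled Bmal1 cKO. The log2 difference was -0.16 with a standard error (SE) of 0.14, and it did not pass the threshold (adjusted p = 0.389, limma). Counts over the whole gene include any parts outside the deleted segment, so they check the deletion in part only. The study reported loss of Bmal1 expression in the intestinal epithelium of its knockout mice, by immunoblot and immunohistochemistry. Those measurements were not examined here.

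Reads on the listed genes numbered 10312791 to 14156639 per library, and the library with the fewest was Bmal1 cKO2. The level of every epithelial marker (12 of 12 genes) was above 0 in all libraries, with sums of 155300 and 178100 normalized counts in WT and 139100 and 146000 in Bmal1 cKO, where 5 were lower (Cldn3, Cdx2, Krt18, Lgals4 and Elf3), 1 was higher (Krt20) and the median log2 difference was -0.44. Over all 13983 tested genes, 29% were called higher and 27.7% lower (adjusted p under 0.05, limma). After a correction for GC content and transcript length (the GC correction, described below), the epithelial median was 0.59, with 5 markers called higher and 0 lower. Under this correction the median of all tested genes was 0.26, and 71.9% of calls were higher, against 51.2% before. Leukocyte markers summed to 12560 and 24840 in WT and to 2803 and 2626 in Bmal1 cKO, where 16 of 20 tested markers were lower, Trac was at 0 in Bmal1 cKO1 and Flt3 in Bmal1 cKO2. Stromal and endothelial markers summed to 16010 and 3498 in WT and to 534.9 and 606.9 in Bmal1 cKO, with 12 of 13 lower and Des at 0 in Bmal1 cKO1. After the GC correction 14 leukocyte markers (median log2 difference -2.63) and 10 stromal and endothelial markers (median -3.38) were lower. In bulk RNA, fewer cells of a type and less RNA per cell cannot be told apart, and the part of these markers in the differences below was not tested.

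Promoters are shown first because the interferon response of these genes is read from short motifs near the transcription start. RefSeq promoters of 300 bases (250 before to 50 after the start, build GRCm38.p6) were matched by symbol for 8 of the 10 genes, with 9 starts in all. Both strands were searched for the core of the interferon-stimulated response element (ISRE), GAAANNGAA, bound by factors of the IRF family, and for the gamma-activated site (GAS), TTCNNNGAA. Capitals mark matches to either motif, and each line holds the 120 bases before the start, read 5′ to 3′ along the gene's strand.
Irgm1: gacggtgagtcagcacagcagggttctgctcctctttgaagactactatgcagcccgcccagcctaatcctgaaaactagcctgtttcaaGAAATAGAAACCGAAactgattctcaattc
Irgm2: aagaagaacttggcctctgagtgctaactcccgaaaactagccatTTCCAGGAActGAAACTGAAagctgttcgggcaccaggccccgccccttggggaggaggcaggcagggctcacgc
Igtp: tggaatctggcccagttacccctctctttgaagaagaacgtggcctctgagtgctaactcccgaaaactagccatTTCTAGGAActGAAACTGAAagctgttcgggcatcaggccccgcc
Tgtp2: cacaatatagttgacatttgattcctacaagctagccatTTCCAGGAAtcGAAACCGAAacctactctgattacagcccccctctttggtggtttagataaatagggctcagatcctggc
Gbp2: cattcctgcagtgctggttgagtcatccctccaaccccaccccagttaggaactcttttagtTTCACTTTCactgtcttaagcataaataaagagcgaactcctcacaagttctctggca
Gbp3: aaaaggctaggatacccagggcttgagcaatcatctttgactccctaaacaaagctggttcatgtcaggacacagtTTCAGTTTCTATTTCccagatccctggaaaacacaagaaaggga
Gbp7: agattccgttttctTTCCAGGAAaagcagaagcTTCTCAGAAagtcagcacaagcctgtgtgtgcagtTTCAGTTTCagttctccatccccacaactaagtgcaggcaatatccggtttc
These stretches lie at chr11:48871421-48871540 (minus strand), chr11:58214857-58214976 (plus), chr11:58199436-58199555 (plus), chr11:49064213-49064332 (minus), chr3:142620543-142620662 (plus), chr3:142559924-142560043 (plus, the first of its 2 starts) and chr3:142530216-142530335 (plus).

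The ISRE core was found in the promoters of 7 of the 8 genes, against 8.6% of all 32851 RefSeq promoters of the same length. A GAS was found in 4 of the 8, against 8.3% of all promoters, and the same 4 genes (Irgm2, Igtp, Tgtp2 and Gbp7) held both motifs, against 1.1%. In Irgm2, Igtp and Tgtp2 the GAS ended 2 bases before the ISRE core, an arrangement that was noticed in these sequences and is present in 8 of the 32851 promoters. The Irgm2 and Igtp promoters also shared an identical run of 61 bases. Irgm1 and Gbp3 each held 2 overlapping ISRE core matches, and in the GBP promoters the core lay on the opposite strand. No match of either motif was found in the window of Ifi47 or at the second start of Gbp3, and the E-box CACGTG, the motif that BMAL1 and CLOCK bind, matched in 0 of the 8 genes, against 7.2% of all promoters. These matches describe the letters and not binding.

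**Figure D1:**
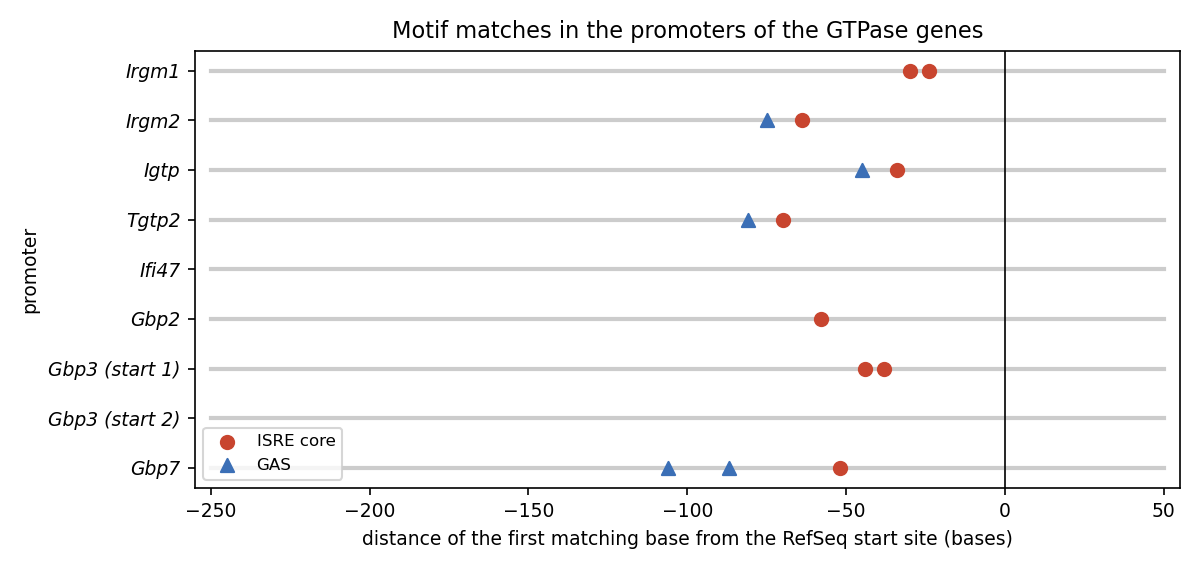
Position of ISRE core matches (circles) and GAS matches (triangles) in the RefSeq promoters of 8 GTPase genes, as the distance in bases of the first matching base from the start site at 0. All matches lay between 106 and 24 bases before the start, and Ifi47 and the second start of Gbp3 had none.

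All 3 regulatory IRG genes had higher levels in both libraries labelled Bmal1 cKO than in either WT library. Irgm1 (ENSMUSG00000046879, chr11:48861968-48871683), needed for normal autophagy and macrophage survival, had 400.4 and 328 normalized counts in WT and 2172 and 1513 in Bmal1 cKO. Both libraries labelled Bmal1 cKO lay above both WT libraries by a margin wider than the gap between the mice of a group, and the log2 difference was 2.32 (SE 0.20), or 5.06-fold between group means. Irgm2 (ENSMUSG00000069874, chr11:58199618-58222782), found on the Golgi and on pathogen vacuoles, had 215 and 128 in WT and 1847 and 1296 in Bmal1 cKO. Its groups were likewise separate, with a log2 difference of 3.22 (SE 0.29), or 9.18-fold.

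Igtp (ENSMUSG00000078853, chr11:58199556-58207591), also called Irgm3 and located on the endoplasmic reticulum and lipid droplets, had 87.0 and 36.4 normalized counts in WT and 882 and 383 in Bmal1 cKO. The groups did not overlap, though the mice within each group differed over 2-fold, and the log2 difference was 3.34 (SE 0.55). The Igtp and Irgm2 gene models share 7974 bp on the same strand, so the division of reads between this pair is uncertain. Summed over the 3 regulatory genes, the libraries held 702 and 492 normalized counts in WT and 4900 and 3192 in Bmal1 cKO.

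Among the effector IRG genes, Iigp1 showed the widest difference of the 10 genes. Iigp1 (ENSMUSG00000054072, chr18:60376027-60392634), which loads onto vacuoles of parasites such as Toxoplasma, had 106 and 15.2 normalized counts in WT and 2223 and 861 in Bmal1 cKO. The lower of its Bmal1 cKO libraries was 8.09 times the higher WT library, and the log2 difference was 5.05 (SE 0.94). The WT2 value rested on 18 reads, and WT1 was 6.98 times WT2, the largest gap between mice of one group.

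Ifi47 (ENSMUSG00000078920, chr11:49076587-49096974), also known as Irgd, had 165 and 49.1 normalized counts in WT and 1399 and 515 in Bmal1 cKO. Here too the groups were separate, with a log2 difference of 3.22 (SE 0.70). Tgtp2 (ENSMUSG00000078921, chr11:49057194-49064206), an Irgb6 gene whose product is among the first to reach a vacuole, was the least abundant with 21.1 and 6.78 in WT and 99.8 and 46.0 in Bmal1 cKO. Its log2 difference was 2.39 (SE 0.69) on only 8 to 97 reads per library, and reads may be split with its near-identical copy Tgtp1. The effector genes together summed to 292 and 71.2 normalized counts in WT and to 3722 and 1422 in Bmal1 cKO.

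The GBP genes had smaller differences than Iigp1, and differed among themselves. Gbp2 (ENSMUSG00000028270, chr3:142620602-142638008), a lipid-anchored GBP that is recruited to vacuoles and bacteria, had 286 and 291 normalized counts in WT and 2656 and 835 in Bmal1 cKO. The WT mice were nearly equal for Gbp2 while Bmal1 cKO1 was 3.18 times Bmal1 cKO2, and the log2 difference was 2.36 (SE 0.52), or 1.53 without Bmal1 cKO1. Gbp7 (ENSMUSG00000040253, chr3:142530342-142550149), which has been tied to oxidative defence at phagosomes, had 229 and 120 in WT and 1280 and 693 in Bmal1 cKO. This gene had the smallest standard error of the GBP genes, with a log2 difference of 2.50 (SE 0.40).

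Gbp6 (ENSMUSG00000104713, chr5:105270702-105293698), from the second GBP cluster of the mouse genome, had 78.6 and 21.2 normalized counts in WT and 427 and 212 in Bmal1 cKO. The log2 difference was 2.85 (SE 0.67), with all Bmal1 cKO values above WT. Gbp3 (ENSMUSG00000028268, chr3:142560026-142573209), a neighbour of Gbp2, had 170 and 88.9 in WT and 439 and 192 in Bmal1 cKO. Its groups came closest to each other, since Bmal1 cKO2 was only 1.13 times WT1, and the log2 difference was 1.23 (SE 0.48), the smallest of the 10. It was 0.64 without Bmal1 cKO1 and 0.77 without WT2.

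**Figure D2:**
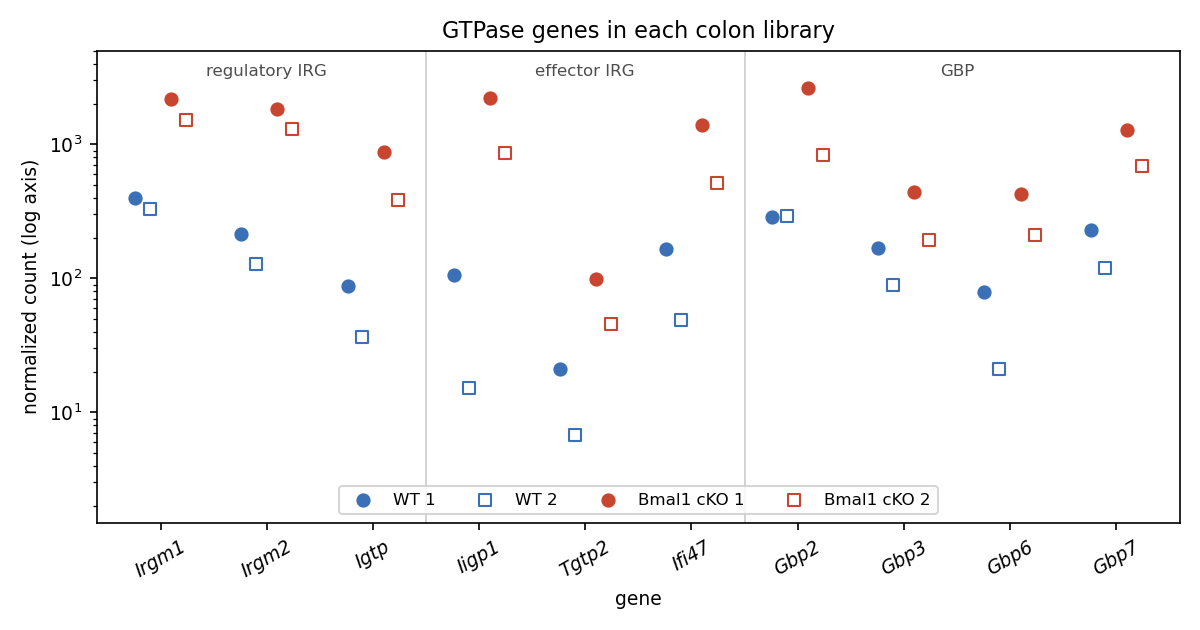
Normalized counts (log axis) of the 10 GTPase genes in each library, with WT1 and WT2 in blue and Bmal1 cKO1 and Bmal1 cKO2 in red. For each gene the red points lie above the blue points, most narrowly for Gbp3.

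Both Bmal1 cKO libraries exceeded both WT libraries for 10 of the 10 genes, against 40.3% of all tested genes; as the genes were selected on this contrast, nothing is read from that count. The median log2 difference was 2.67 over the 10 genes, with a range from 1.23 to 5.05, and it was -0.04 over the 13983 genes tested. By class, the median was 3.22 for regulatory IRG genes, 3.22 for effector IRG genes and 2.43 for GBP genes. Reads of the 10 genes summed to 1758 and 1085 normalized counts in WT and to 13420 and 6546 in Bmal1 cKO.

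Across genes, the difference between groups went along with the GC content of the transcript. Transcripts of the 10 genes had a GC content of 39.3% to 49.5%, against a median of 49.5% over all tested genes, and the 10% of tested genes with the least GC, among them Iigp1 and Gbp6, had a median log2 difference of 1.13. After each library was corrected for GC content and transcript length, the median of the 10 genes was 2.19 (range 1.02 to 4.21) while that of all tested genes was 0.26. Relative to all genes the median of the 10 was thus 2.71 before the correction and 1.93 after it. Igtp, with the highest GC content of the 10, went from 3.34 to 3.56, and Iigp1 from 5.05 to 4.21.

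**Figure D3:**
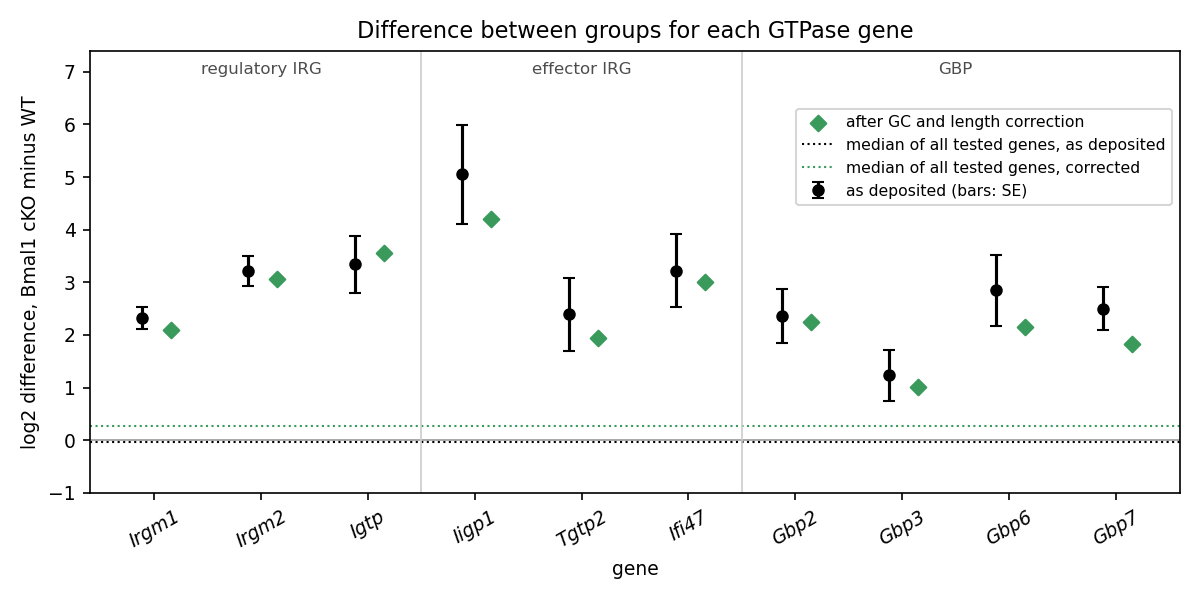
Log2 difference between Bmal1 cKO and WT for each GTPase gene, from log2(normalized count + 1) as deposited (black, bars show the SE) and after correction for GC content and transcript length (green). All values lie above the dotted medians of all tested genes, which are -0.04 as deposited and 0.26 after correction.

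The mice of one group differed in the same direction for nearly all of these genes, a measure not used to select them. Bmal1 cKO1 was above Bmal1 cKO2 for 10 of 10, compared with 49.55% of all tested genes. The ratio ranged from 1.43 for Irgm2 to 3.18 for Gbp2 with a median of 2.21, and the median ratio over all tested genes was 1.0. In WT, the level in WT1 was above that in WT2 for 9 of 10, compared with 51.09% of all tested genes, and the ratio ranged from 0.983 for Gbp2 to 6.98 for Iigp1 with a median of 2.11. The same held in Bmal1 cKO for 13 of 14 tested genes of the same families outside the 10, for 21 of 23 other interferon-γ targets, for 18 of 20 type I interferon targets and for 14 of 21 interferon signalling genes. In WT, WT1 was the higher for 12 of 14, 15 of 23, 14 of 20 and 18 of 21 of these lists in turn. Of the markers, 15 of 20 leukocyte, 12 of 13 stromal and 2 of 12 epithelial genes were higher in WT1 than in WT2. Higher in Bmal1 cKO1 than in Bmal1 cKO2 were 9 of 20, 6 of 13 and 5 of 12 in turn. The part of these markers in the gaps was not tested. With 1 pair of mice per group these gaps have no test.

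**Figure D4:**
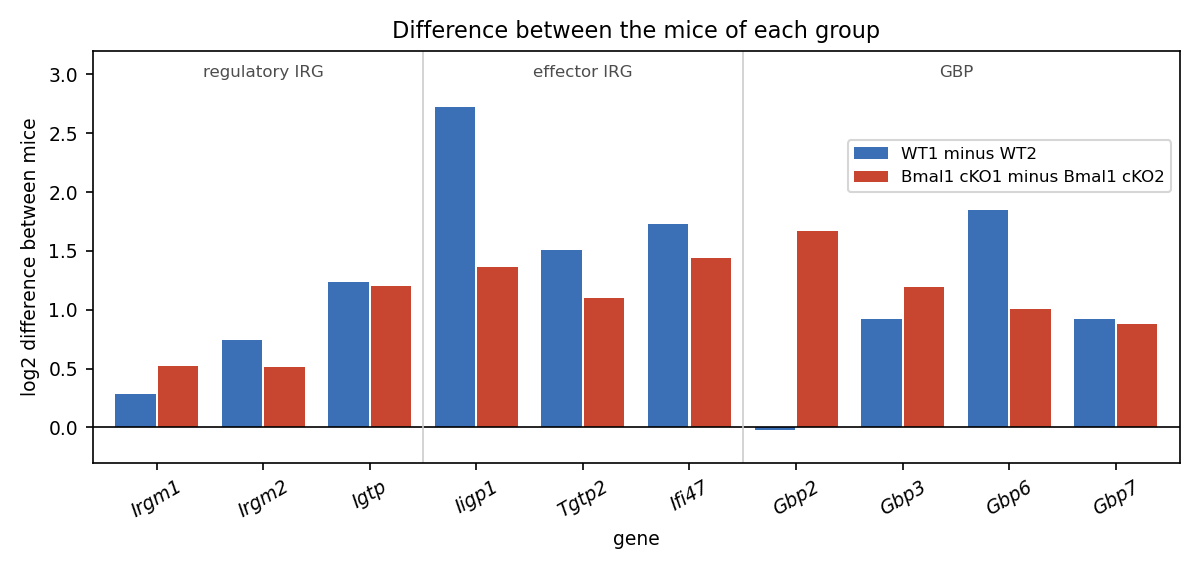
Log2 difference between the mice of each group for the 10 GTPase genes, as WT1 minus WT2 (blue) and Bmal1 cKO1 minus Bmal1 cKO2 (red). All bars point upward except that of Gbp2 in WT, where the ratio was 0.983.

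Levels were compared between genes only per kilobase of the longest annotated transcript. In WT, Gbp2 led with a mean of 115 ± 1.4 normalized counts per kilobase (SD, n = 2), followed by Irgm1 (95.0 ± 13.4), Ifi47 (60.3 ± 46.1), Irgm2 (48.5 ± 17.4), Gbp3 (48.2 ± 21.3), Gbp7 (31.1 ± 13.7), Igtp (30.5 ± 17.7), Iigp1 (19.5 ± 20.7), Gbp6 (11.8 ± 9.57) and Tgtp2 (4.96 ± 3.61). Only the step from Gbp2 to Irgm1 was free of overlap between mice, and the other 8 neighbouring pairs overlapped. In Bmal1 cKO the order per kilobase was Gbp2 (694 ± 512), Ifi47 (540 ± 353), Iigp1 (494 ± 309), Irgm1 (481 ± 122), Irgm2 (446 ± 111), Igtp (313 ± 175), Gbp7 (176 ± 73.8), Gbp3 (118 ± 65.2), Gbp6 (75.3 ± 35.8) and Tgtp2 (25.9 ± 13.5). Again 8 neighbouring pairs overlapped, and only Gbp6 and Tgtp2 did not. By group means the place of Iigp1 thus went from the eighth in WT to the third in Bmal1 cKO, and that of Gbp3 from the fifth to the eighth. These places depended on the mouse. In Bmal1 cKO2 alone, Iigp1 (275.9) lay below Irgm1 (394.7), Irgm2 (367.4), Gbp2 (332) and Ifi47 (290.5). In WT2 alone, Iigp1 (4.885) lay below Gbp6 (4.991).

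The genes lie in clusters. Irgm1, Tgtp2 and Ifi47 span 235007 bp of chromosome 11 that holds 9 listed genes, Igtp and Irgm2 span 23227 bp further along the same chromosome, and Gbp7, Gbp3 and Gbp2 span 107667 bp of chromosome 3. Of the 11 nearest tested genes on either side that belong to neither family, 3 were higher in Bmal1 cKO (Isoc1, Zfp62 and Pdlim5), 3 were lower (Mrpl22, Zfp692 and Smim3) and 5 were not called (Gm16170, Psme2b, Kyat3, Abcg3 and Lrrc8b), with a median log2 difference of 0.32. After the GC correction that median was 0.01, and Zfp62, Pdlim5, Mrpl22 and Zfp692 were no longer called, while Psme2b was called higher and Abcg3 lower. A gene was called at an adjusted p under 0.05 from limma, and over all 13983 tested genes 29% were called higher and 27.7% lower.

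Other listed genes of the GTPase families numbered 15, of which 14 were tested. Of these, 5 were higher in Bmal1 cKO and 0 lower, against 29% and 27.7% of all tested genes, with a median log2 difference of 1.88. The number called higher was 3 without WT2 and 2 without Bmal1 cKO1. They are not an independent remainder, because the 10 genes above were taken from the same families with the results known. Gm4841, an IRG gene, had 0 and 0 normalized counts in WT and 72 and 40.6 in Bmal1 cKO, at least 22.2-fold higher against a floor of 3 reads in each WT library, and its call (adjusted p = 0.00283, limma) was lost without Bmal1 cKO1 (adjusted p = 0.0548). Tgtp1, the copy of Tgtp2, had 10.98 and 0.847 in WT and 279 and 67.6 in Bmal1 cKO. Its log2 difference of 4.88 (SE 1.11, adjusted p = 0.0146, limma) lost its call without WT2 (adjusted p = 0.0685, limma), without Bmal1 cKO1 (adjusted p = 0.130) or without Bmal1 cKO2 (adjusted p = 0.0567). Reads of such copies can be split among near-identical genes. Gm12185 and Gm5431, which lie between Irgm1 and Tgtp2, were higher by 3.85 (SE 0.52, adjusted p = 0.00254) and 3.04 (SE 0.38, adjusted p = 0.00206) on the log2 scale in limma. The gene model of Gm12185 overlaps those of Tgtp1 and 9930111J21Rik1 on the same strand, so the division of their reads is uncertain. Gm4070, the other gene called higher, differed by 1.26, and by 0.49 after the GC correction, when it was no longer called.

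Not all GBP and IRG genes passed the test. Gbp4 differed by 2.50 on the log2 scale (SE 0.85, adjusted p = 0.0518, limma), Gbp5 by 0.86 (SE 0.58), Gbp8 by 0.63 (SE 0.66) and Gbp9 by 0.76 (SE 0.86). The groups overlapped for Gbp5, Gbp8 and Gbp9 and not for Gbp4. The gene models of Gbp4, Gbp8 and Gbp9 overlap on the same strand, so the division of reads among them is uncertain. Gbp5 had 129 and 49.98 normalized counts in WT and 219 and 98.7 in Bmal1 cKO. Of the IRG genes, Gm4951 differed by 4.01 (SE 1.35, adjusted p = 0.0501, limma) and F830016B08Rik by 2.73 (SE 1.15). The differences of 9930111J21Rik1 (-0.24, SE 1.05) and 9930111J21Rik2 (-0.73, SE 0.94), which lie in the first chromosome 11 cluster, had the opposite sign, and 9930111J21Rik2 had 107 and 17.8 normalized counts in WT and 42.2 and 16.2 in Bmal1 cKO. Irgq, a distant relative, had 563 and 564 in WT and 512 and 503 in Bmal1 cKO and was not called, but was called higher by 0.82 after the GC correction. These uncalled genes were described after their values were seen.

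The ligand of the pathway was barely detected. Ifng, which encodes interferon-γ, had 2 and 0 reads in WT and 11 and 4 in Bmal1 cKO, too few to be tested. As a background for the counts that follow, 29% of all tested genes were called higher and 27.7% lower. Of 21 tested interferon signalling genes, 7 were higher and 4 lower, with a median log2 difference of 0.24, and 3 were higher without Bmal1 cKO1 or without Bmal1 cKO2. For the receptor, Ifngr1 was higher by 0.83 (SE 0.09, adjusted p = 0.00135, limma), with 3400 and 3328 normalized counts in WT and 6157 and 5811 in Bmal1 cKO. Ifngr2 was lower, with a log2 difference of -0.40 (SE 0.09, adjusted p = 0.0147, limma), a call lost after the GC correction (-0.13, adjusted p = 0.416) and without WT2 (0.0637), Bmal1 cKO1 (0.0642) or Bmal1 cKO2 (0.0726). Of the kinases, Jak1 differed by 0.19 (SE 0.11, adjusted p = 0.179, limma), and Jak2 was higher by 0.69 (SE 0.12, adjusted p = 0.00648, limma), a call lost after the GC correction (0.28, adjusted p = 0.202) and without Bmal1 cKO1 (0.0637) or Bmal1 cKO2 (0.0509).

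Irf1, a transcription factor gene whose product acts on ISRE motifs, had 1184 and 1029 normalized counts in WT and 1459 and 1226 in Bmal1 cKO, and its log2 difference of 0.28 was not called (adjusted p = 0.121, limma) but was called at 0.93 after the GC correction. Socs1, an inhibitor of the pathway, differed by -0.98 (SE 0.63, adjusted p = 0.225, limma), a direction that turned to 0.46 after the GC correction, and was -1.85 and called without WT2 but -0.12 without WT1. Il18, an inducer of interferon-γ made by epithelial cells, was higher by 1.73 (adjusted p = 0.00155, limma), and Stat2 by 0.79 (adjusted p = 0.0484, limma), a call that 9 of 15 alternatives ended, among them leaving out any library (adjusted p from 0.067 to 0.249), with a log2 difference of 0.51 without WT2 and 0.50 without Bmal1 cKO1. Lower were Socs3 by 2.81 (log2 difference -2.81, adjusted p = 5.42e-04, limma), the type I receptor gene Ifnar2 (-2.74, adjusted p = 0.0015) and the phosphatase gene Ptpn6 (-2.19, adjusted p = 0.00175), which is also expressed in leukocytes. After the GC correction Socs3 was at -1.37 and Ptpn6 at -1.29, both still called, and Stat2 was called at 1.31.

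Other genes induced by interferon-γ did not move as one. Of 23 tested, 3 were higher, 6 lower and 14 not called, with a median log2 difference of 0.26. Among all tested genes 29% were higher and 27.7% lower. The number lower was 1 without WT1 and 3 without WT2 or without Bmal1 cKO2. Cxcl9, a chemokine gene that attracts T cells, had 10.98 and 5.93 normalized counts in WT and 204 and 113 in Bmal1 cKO, a log2 difference of 4.07 (SE 0.50, adjusted p = 0.00182, limma). Parp14 was higher by 1.75 (SE 0.18, adjusted p = 0.00106, limma) and Gch1, for biopterin synthesis, by 0.60 (SE 0.10, adjusted p = 0.00571). Among the lower genes were Cd74, the invariant chain of antigen-presenting cells, at -3.51 (SE 0.56, adjusted p = 0.00431), the complement inhibitor gene Serping1 at -3.67 (SE 0.95, adjusted p = 0.0221), Zbp1 at -1.36 (adjusted p = 0.0225) and Nos2 at -1.09 (adjusted p = 0.0265), all from limma. Zbp1 (-0.95) and Nos2 (-0.32) were no longer called after the GC correction, under which 10 genes of the list were called higher and 2 lower, nor without WT1 (adjusted p = 0.121 and 0.119) or WT2 (0.136 and 0.156). The call of Cd74 was lost without Bmal1 cKO1 (adjusted p = 0.0615), and that of Serping1 without WT1, Bmal1 cKO1 or Bmal1 cKO2 (adjusted p = 0.0628, 0.0993 and 0.160). Without WT1 Serping1 was at -2.24, and without Bmal1 cKO2 Zbp1 was at -0.81 and Nos2 at -0.63. After the GC correction Cd74 was at -2.30 and Gch1 at 0.39, both still called. That correction moved calls over all tested genes too, to 4204 higher and 1646 lower (71.9% higher, against 51.2% before).

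Genes known as targets of type I interferon were higher more often than lower, 11 against 1 of 20 tested, with a median log2 difference of 0.89. The shares over all tested genes were 29% higher and 27.7% lower. Ifit2, which binds viral RNA, had 303 and 153 normalized counts in WT and 1891 and 734 in Bmal1 cKO, a log2 difference of 2.45 (SE 0.52, adjusted p = 0.0117, limma). Also higher were Ifi44 (2.10, adjusted p = 0.0496), the antiviral enzyme gene Rsad2 (1.48, adjusted p = 0.00789) and Cmpk2 (1.29, adjusted p = 0.0238), while Irf7 was lower (-1.26, adjusted p = 0.00238), a call lost after the GC correction (-0.30). The call of Ifi44 was ended by 7 of 15 alternatives, and its log2 difference was 1.12 without Bmal1 cKO1 and 1.35 after the GC correction. With 1 library left out, the number called higher fell to 7 without WT1, 4 without WT2 and 3 without Bmal1 cKO1. Ifit2 was not called without WT2 (adjusted p = 0.0914) or Bmal1 cKO1 (0.0715), Rsad2 without WT1 (0.0664) or Bmal1 cKO1 (0.0626), Cmpk2 without WT2 (0.126), Bmal1 cKO1 (0.157) or Bmal1 cKO2 (0.0584), and Ifi44 without WT1 (0.120), WT2 (0.247) or Bmal1 cKO1 (0.220).

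The GTPases act with autophagy, ubiquitin and inflammasome proteins, and of 24 such genes tested 12 were higher and 7 lower, with a median log2 difference of 0.31. For all tested genes the shares were 29% and 27.7%. Casp1, the inflammasome protease, had 975 and 1107 normalized counts in WT and 3832 and 4036 in Bmal1 cKO, a log2 difference of 1.92 (SE 0.10, adjusted p = 5.33e-04, limma). The antibody receptor gene Trim21 was higher by 1.72 (adjusted p = 0.00122), the inflammasome adaptor gene Pycard by 1.45 (adjusted p = 0.001) and the autophagy receptor gene Tax1bp1 by 1.32 (adjusted p = 7.57e-04) in the same fit. Lower were Map1lc3a (-3.78, adjusted p = 0.00297), the inflammasome sensor gene Nlrp3 (-3.57, adjusted p = 0.025) and the ubiquitin receptor gene Sqstm1 (-1.0, adjusted p = 0.00381). After the GC correction Tax1bp1 fell to 0.51 and was still called (adjusted p = 0.0432, limma), while Map1lc3a (-1.56) and Sqstm1 (-0.22) were no longer called, nor was Sqstm1 without Bmal1 cKO1 (adjusted p = 0.0505) or Nlrp3 without WT2 (0.0918, with a log2 difference of -2.20), Bmal1 cKO1 (0.0904) or Bmal1 cKO2 (0.173). The number of partner genes lower was 4 without either Bmal1 cKO library. Unlike the 10 GTPase genes, only 7 of these 24 were higher in Bmal1 cKO1 than in Bmal1 cKO2.

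**Figure D5:**
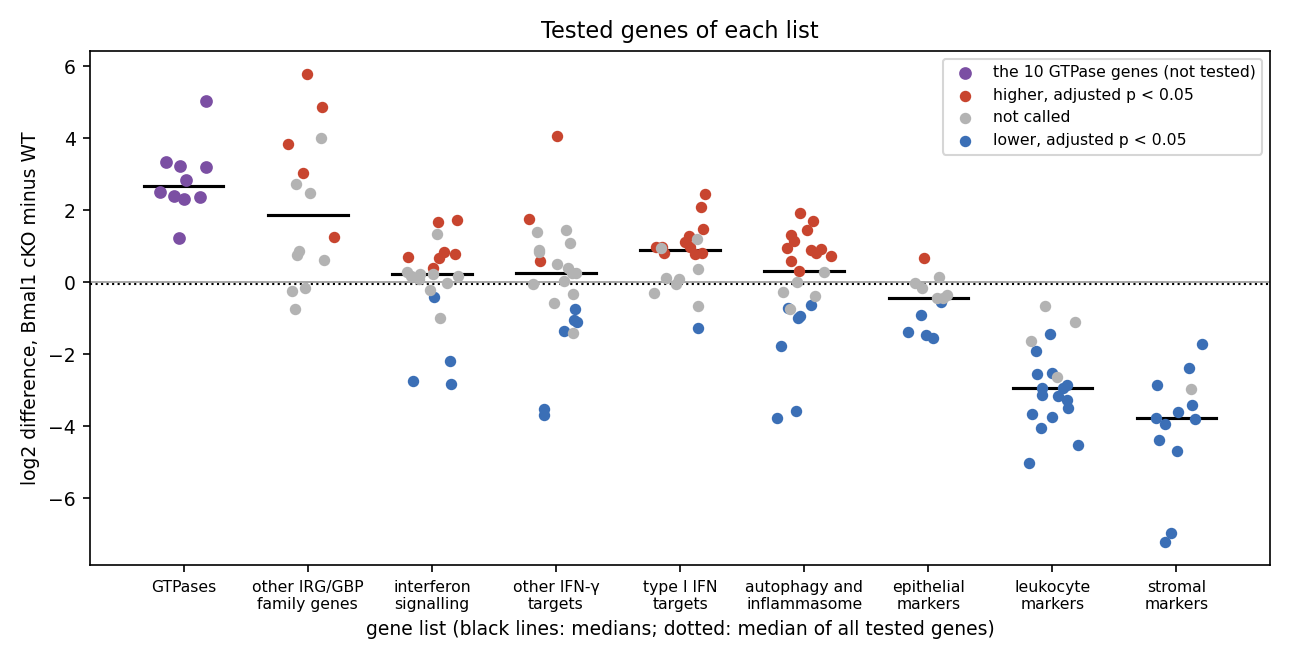
Log2 difference between Bmal1 cKO and WT for the 10 GTPase genes and for the tested genes of 8 lists, coloured by whether limma called them at an adjusted p under 0.05, with medians as black lines. The medians run from 2.67 for the GTPase genes and 1.88 for their relatives to -2.93 for leukocyte and -3.76 for stromal markers.

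The profile over the 4 libraries was also compared with that of every other gene with a mean of at least 100. The reference was the mean profile of the GTPase genes that also reach this mean, which leaves out Tgtp2. Nearest to that reference, by Euclidean distance between centred log2 values, were Ifit2 (0.51), Gm5431 (0.54), Hoxd13 (0.76), Scd1 (0.76) and Cps1 (0.79). For scale, the distances of the GTPase genes with that mean ranged from 0.45 for Igtp to 2.43 for Iigp1. Hoxd13, a homeobox gene of the hindgut, had 344 and 160 normalized counts in WT and 1462 and 746 in Bmal1 cKO. Scd1 and Cps1, for fatty acid desaturation and for the urea cycle, were closer to equal between the Bmal1 cKO mice than the GTPase genes were.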

How the data were processed

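RNA of colonic epithelial cells from 2 WT and 2 Bmal1 cKO mice was sequenced, and groups were taken from the genotype label. Reads were aligned to GRCm38 with STAR and differential expression was computed with DESeq2 by the authors. The labels and the methods name different library kits, and the read counter, strand setting and annotation release were not given in the sources used here. The deposited values are a signal, namely counts per gene that the authors divided by a size factor for each library. Columns of the authors' own comparison (mean, fold change, its error, statistic and p-values) were also deposited and were not used.

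Values of each library were within 0.1 of a whole number of reads for 100.0% of the entries of up to 2000 reads, and edgeR 4.0.16 and DESeq2 1.42.0 were run on the recovered reads as alternatives. Total reads limit the precision of genes with few reads, and bounds against a floor of 3 reads cover counting error only. Main values are from limma 3.58.1 (R 4.3.3) with a mean-variance trend on log2(value + 1), for 13983 of 16015 genes with a mean of at least 10, two-sided, with Benjamini-Hochberg adjustment over these genes and a threshold of 0.05. Such differences understate the change of low genes. Coordinates and transcript lengths are from GENCODE vM21 (GRCm38), which matched 16003 genes. Other settings were pseudocounts of 0.5 and 5, no filter or a mean of at least 50, other scalings, a loess correction (span 0.3) for GC content and length, a replicate block, and leaving out each mouse. The steps were tested on simulated data.

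The members and lists were chosen with earlier results of these data known. Genes named are the 10 GTPase genes, 8 core signalling genes, from each list the 4 called genes with the largest log2 difference in each direction, and the 5 genes nearest in profile, apart from those said to be chosen after their values were seen and the genes named by position. Some genes under this rule are not reported here. Replicate numbers are shared between the groups in the titles only: the differences between numbers 1 and 2 in WT and in Bmal1 cKO correlated at -0.0908 across genes. Libraries of a group differed beyond counting noise (chi-square per gene of 46.2 in WT and 11.1 in Bmal1 cKO). Groups of 2 are too small for an exact permutation test to reach the threshold. The limma p-values set the group difference against a within-group variance. That variance was estimated from these mice and partly drawn from the trend across genes.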

Additional observations from a re-analysis of the deposited data

How the results depend on the processing

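The GTPase genes kept their direction under every alternative in which they were tested (15 for each, 14 for Tgtp2, which is under a mean of 50), and their median ranged from 2.20 to 3.37 when 1 library was left out. For most alternatives this direction was fixed in advance, and nothing is read from it. The genes were selected on this contrast, and both Bmal1 cKO libraries exceeded both WT libraries for each. Leaving out 1 library or changing the pseudocount or filter could therefore not turn a sign. Scaling to library totals moved the median of all genes from -0.04 to -0.26, and with it calls from 51.2% to 38.8% higher; the GC correction moved it to 0.26 and calls to 71.9% higher, with 1646 genes lower instead of 3871 (1690 with the replicate block). Without 1 library, 2654 to 3154 genes were called higher and 2205 to 2852 lower. Other family members called higher numbered 3 at a mean of at least 50, 9 with the replicate block, 8 with the block and GC correction, and 2 to 6 with 1 library left out, and 1 was lower by library totals. Signalling genes called higher numbered 4 by library totals, 11 with the block and GC correction and 3 to 5 without 1 library. Interferon-γ targets called higher numbered 7 by DESeq2, 10 with the GC correction (also with the block) and 6 with the block, and those lower 2 with the GC correction, 3 with the block added and 1 to 5 without 1 library. Type I targets called higher numbered 7 by library totals and 3 to 9 without 1 library, and those lower 0 with the GC correction, also with the block, and 1 to 2 without 1 library. Partners called lower numbered 4 to 6 without 1 library. The replicate numbers are shared in name only, so these block counts are not a paired result. Jak1 turned to -0.036 by library totals, and Socs1 to 0.46 with the GC correction, with or without the block. Over the 36 tested named genes, 475 of 538 alternative values kept direction and call, 57 lost the call and 3 gained it. A fit without 1 library assumes that the lone mouse varies like the others. The cause of these changes was not tested. Depth limits genes with few reads, such as Tgtp2, Ifng and, in WT, Gm4841, Tgtp1 and Gm12185.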
